A study of Mus musculus with 9 samples.

Results

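Corticosteroid signalling in the aorta was followed through 8 genes, which encode the receptors for mineralocorticoids and glucocorticoids, the enzymes that control access to them, and well-known targets. They were found by gene symbol, and all 8 were among the 37668 genes of the deposited table: Nr3c1, Nr3c2, Hsd11b1, Hsd11b2, Fkbp5, Tsc22d3, Sgk1 and Zbtb16. RNA had been sequenced from the aorta of 9 male mice aged 90 days, on a background labelled 129T2SvEmsJ:C57Blk/6J, in 3 groups of 3 libraries. Sm22Cre mice carried the floxed AT1ar allele (Agtr1a, the angiotensin II type 1a receptor gene) and a Cre transgene labelled Sm22-Cre, which places the intended loss in smooth muscle. Cdh5Cre mice carried the same allele with Cdh5-Cre, which places it in endothelium. Floxed mice carried the allele without Cre, so every mouse, controls included, had the floxed allele, and the Cre groups differ from the floxed group by the transgene itself as well. The series title names Marfan syndrome, while the labels list no fibrillin-1 allele. They do not say whether either Cre was inducible. As background, Cdh5 promoters can drive Cre in blood-forming cells as well as endothelium, and the Sm22 (Tagln) promoter in embryonic heart muscle as well as smooth muscle.

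The glucocorticoid receptor (Nr3c1) and the mineralocorticoid receptor (Nr3c2) are ligand-activated transcription factors. They are held ready for hormone by a chaperone complex built on Hsp90, and after binding hormone they act on genes carrying glucocorticoid response elements. The enzyme encoded by Hsd11b1 regenerates active glucocorticoid inside cells, whereas Hsd11b2 inactivates it and so leaves the mineralocorticoid receptor to aldosterone. In the vessel wall both receptors are known for effects on tone, stiffness and inflammation, and mineralocorticoid signalling interacts with that of angiotensin II.

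Sgk1 and Tsc22d3 are textbook targets of such elements, so the letters around their transcript starts are shown here, with those of Fkbp5, whose known elements lie in its introns. The element searched was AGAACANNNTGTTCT, made of the arms AGAACA and TGTTCT around 3 free bases. The arms are reverse complements of each other, so 1 search covered both strands, and every full element also counts among windows with an arm. Windows ran from 250 bases before a start to 50 after it and came from RefSeq (GRCm38.p6), where 5 of the 8 genes were matched with 12 windows in all: Fkbp5, Hsd11b1, Nr3c2, Sgk1 and Tsc22d3. Nr3c1, Hsd11b2 and Zbtb16 had no entry. A full element was found in 3 of all 32851 windows, 1 of them at an Sgk1 start (chr10:21993640-21993939, plus strand), where it began 189 bases before the start. An arm was found in 6233 windows (19%), in 4 of the 12 windows of these genes and in 5 of 38 windows of 31 other glucocorticoid-responsive genes. The Tsc22d3 window at chrX:140600473-140600772 (minus strand) held 1 arm, 185 bases before the start, and the only Fkbp5 window (chr17:28486100-28486399, minus strand) held none. The letters are given 5′ to 3′, with the element and its arms in capitals. A match describes letters and is not a measured binding site.
Sgk1: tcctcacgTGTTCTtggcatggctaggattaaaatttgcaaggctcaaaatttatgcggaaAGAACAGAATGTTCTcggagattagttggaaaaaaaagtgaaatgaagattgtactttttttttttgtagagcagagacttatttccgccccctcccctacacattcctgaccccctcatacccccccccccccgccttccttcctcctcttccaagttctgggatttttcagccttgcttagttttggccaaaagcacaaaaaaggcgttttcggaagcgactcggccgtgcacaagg
Tsc22d3: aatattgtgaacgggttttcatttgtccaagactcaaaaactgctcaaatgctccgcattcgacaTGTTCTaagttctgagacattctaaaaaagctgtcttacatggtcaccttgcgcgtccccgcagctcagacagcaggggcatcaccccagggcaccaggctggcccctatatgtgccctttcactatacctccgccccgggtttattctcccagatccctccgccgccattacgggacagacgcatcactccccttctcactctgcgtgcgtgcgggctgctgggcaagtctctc
Fkbp5: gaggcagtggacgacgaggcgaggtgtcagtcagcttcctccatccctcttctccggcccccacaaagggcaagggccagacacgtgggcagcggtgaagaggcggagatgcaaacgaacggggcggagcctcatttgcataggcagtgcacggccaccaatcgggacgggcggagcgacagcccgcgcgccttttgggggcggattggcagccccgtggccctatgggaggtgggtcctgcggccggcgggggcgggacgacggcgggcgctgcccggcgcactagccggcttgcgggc

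All levels below are the authors' FPKM (fragments per kilobase of transcript, scaled to the number of mapped fragments), which allow comparison between genes because transcript length is divided out. The table gives 1 value per group, in which the 3 libraries had already been combined. The spread between mice and the sequencing depth are therefore unknown, no test between groups could be made, and whether a difference exceeds the spread between mice is not known. Log2 ratios were taken after adding 1 FPKM to each value, a scale that shrinks the differences of scarce genes, and a gene was said to reach 2-fold when its ratio on that scale did. Genes at 1 FPKM or more in some group were compared. They numbered 14227 and included 7 of the 8 genes described here, all but Hsd11b2. In bulk tissue, fewer cells of a type and less RNA per cell cannot be told apart. The deposited status was OK in every pair of groups for Nr3c2, Fkbp5, Tsc22d3 and Zbtb16, and FAIL in every pair for Nr3c1, Hsd11b1 and Sgk1, which leaves those estimates less certain. Of all compared genes, status was OK for 75.6% in Sm22Cre against floxed, 71.8% in Cdh5Cre against floxed and 72.0% in Sm22Cre against Cdh5Cre. Status is not given for every gene named below. Genes overlapping the loci of Nr3c2, Hsd11b1 and Fkbp5 stood at 0.07 FPKM or less. The targeted gene itself, Agtr1a, stood at 1.21 FPKM in Sm22Cre, 1.32 in Cdh5Cre and 1.75 in floxed.

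**Figure D1:**
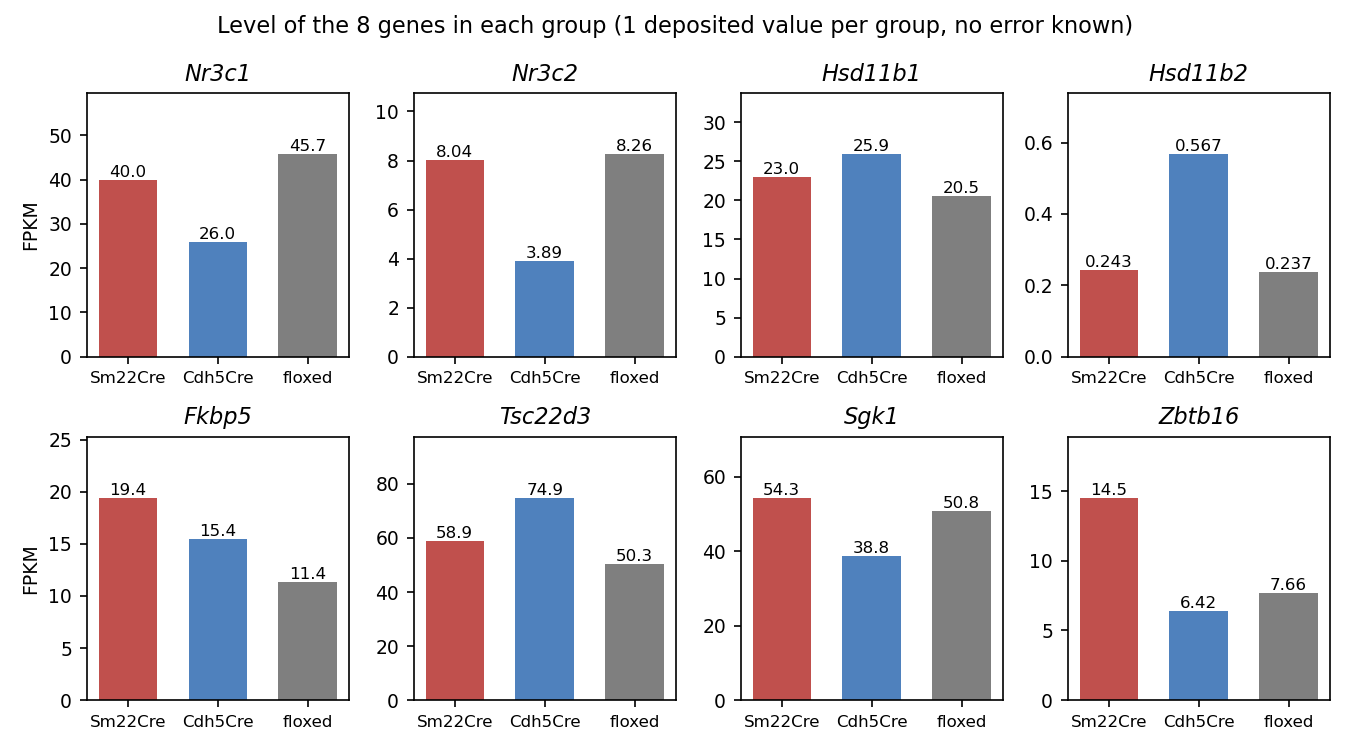
FPKM (vertical axes, each from 0) of the 8 genes in Sm22Cre, Cdh5Cre and floxed aorta, where each bar is the authors' single value for 3 combined libraries. Nr3c1 and Nr3c2 were lowest in Cdh5Cre, and Fkbp5, Zbtb16 and Sgk1 highest in Sm22Cre.

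Both receptor genes were lower in Cdh5Cre aorta than in the other groups. Nr3c1 (ENSMUSG00000024431, mm9 chromosome 18, 39570199 to 39650955) stood at 40.0 FPKM in Sm22Cre, 26.0 in Cdh5Cre and 45.7 in floxed. Nr3c2 (ENSMUSG00000031618, chromosome 8, 79129125 to 79768911) stood at 8.04 FPKM in Sm22Cre, 3.89 in Cdh5Cre and 8.26 in floxed. For both receptors the Cdh5Cre value was the low one, and Sm22Cre lay nearer to floxed. The plain ratio against floxed was 1.76-fold lower for Nr3c1 and 2.12-fold lower for Nr3c2 in Cdh5Cre, or log2 ratios of -0.79 and -0.92. In Sm22Cre the log2 ratios against floxed were -0.19 and -0.03. Glucocorticoid receptor transcript exceeded that of the mineralocorticoid receptor in each group, by 4.98-fold in Sm22Cre, 6.69-fold in Cdh5Cre and 5.54-fold in floxed.

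Both receptors have long transcripts, and in Cdh5Cre against floxed the ratios of all genes depended on transcript length. The longest coding transcript was 6436 bases for Nr3c1 and 5916 bases for Nr3c2. The median log2 ratio in Cdh5Cre against floxed was 0.41 in the tenth of genes with the shortest transcripts and -0.37 in the tenth with the longest, against 0.04 and -0.05 in Sm22Cre against floxed. A smooth trend in both transcript length and GC content took up 44.8% of the variance of the ratios in Cdh5Cre against floxed and 3.78% in Sm22Cre against floxed. For a gene with the length and GC content of Nr3c1 the trend in Cdh5Cre was -0.43, and for one like Nr3c2 it was -0.26. With the trend removed, the log2 ratio of Nr3c1 was -0.36 and that of Nr3c2 -0.66. Nr3c2 then still ranked 150 from the bottom of 12317 coding genes, and Nr3c1 ranked 1004 from the bottom.

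**Figure D2:**
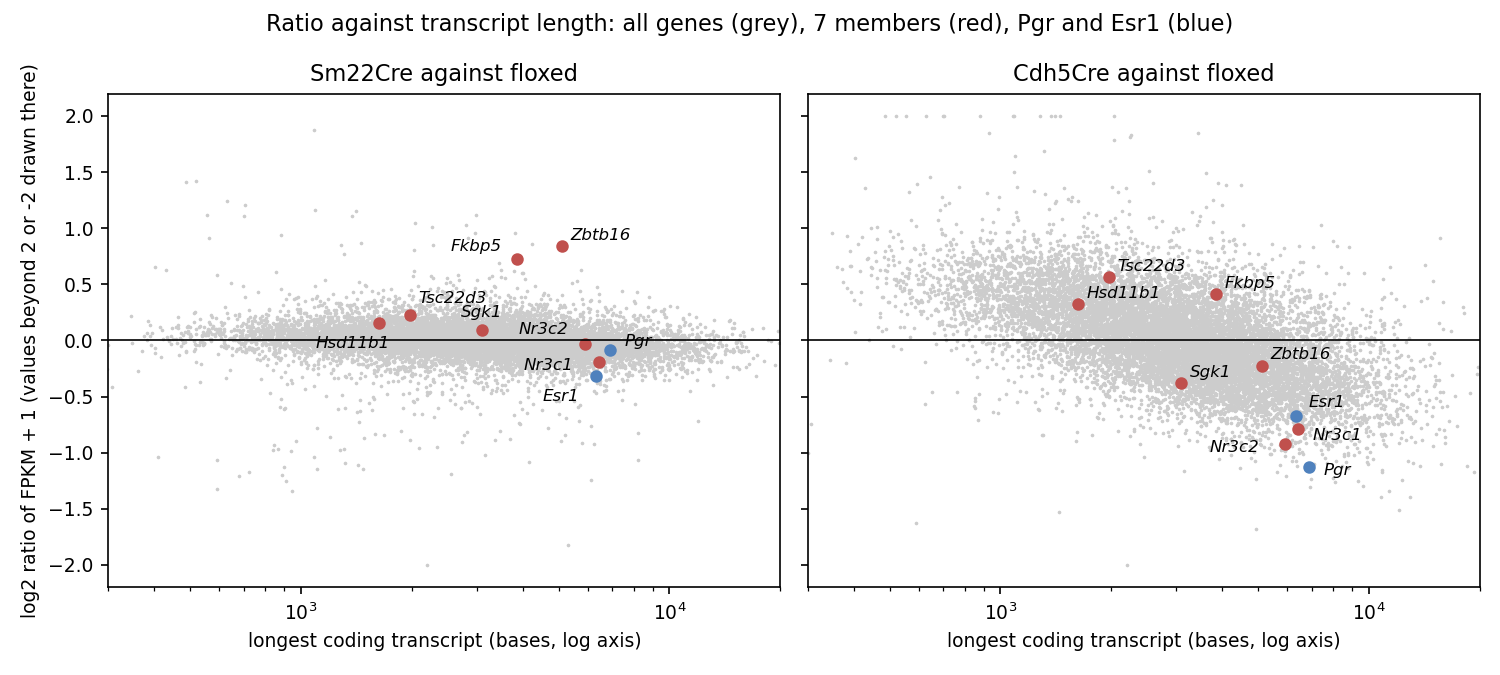
Log2 ratio of FPKM + 1 (vertical) against the longest coding transcript in bases (horizontal, log axis), for Sm22Cre against floxed and Cdh5Cre against floxed. Grey points are all coding genes, red points 7 of the genes described here and blue points Pgr and Esr1. In Cdh5Cre the grey cloud slopes down, with Nr3c2 at -0.92 near its lower edge, and Fkbp5 and Zbtb16 stand above the cloud in Sm22Cre.

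The sex steroid receptor genes Pgr and Esr1 were also lower in Cdh5Cre aorta than in floxed aorta, while Esr2 and Gper1 stayed under 1 FPKM. The progesterone receptor gene Pgr stood at 5.15 FPKM in Sm22Cre, 1.99 in Cdh5Cre and 5.52 in floxed, a log2 ratio of -1.13 in Cdh5Cre against floxed (-0.79 with the trend removed) at status FAIL. The estrogen receptor gene Esr1 stood at 5.26 FPKM in Sm22Cre, 3.89 in Cdh5Cre and 6.78 in floxed, with a log2 ratio of -0.67 in Cdh5Cre against floxed (-0.33 with the trend removed). In Sm22Cre against floxed the log2 ratio was -0.31 for Esr1 and -0.09 for Pgr, and in Sm22Cre against Cdh5Cre it was 0.36 for Esr1 and 1.04 for Pgr (0.74 for Pgr with the trend removed).

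The enzymes that set local hormone access were of very different abundance. Hsd11b1 (ENSMUSG00000016194, chromosome 1, 195029233 to 195090248) stood at 23.0 FPKM in Sm22Cre, 25.9 in Cdh5Cre and 20.5 in floxed. Its log2 ratio was 0.16 in Sm22Cre and 0.32 in Cdh5Cre, each against floxed. Hsd11b2 (ENSMUSG00000031891, chromosome 8, 108042646 to 108047884) stood at 0.24 FPKM in Sm22Cre, 0.57 in Cdh5Cre and 0.24 in floxed, under the low-value limit in every group. The Cdh5Cre value was thus the highest of the 3 for both enzymes. For Hsd11b2 the plain ratio in Cdh5Cre against floxed was 2.40-fold. Its status was OK in both pairs with Cdh5Cre and NOTEST in Sm22Cre against floxed. How many fragments a difference at so low a level rests on is not known. The reactivating enzyme exceeded the inactivating one by 94.7-fold in Sm22Cre, 45.7-fold in Cdh5Cre and 86.7-fold in floxed.

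H6pd, which supplies the cofactor for the Hsd11b1 enzyme, was at 27.9 FPKM in Sm22Cre, 33.4 in Cdh5Cre and 30.9 in floxed. Of 14 genes for steroid supply, metabolism and transport, 6 reached 1 FPKM. None of the 6 reached 2-fold in any comparison. Por had the highest log2 ratio in Sm22Cre against floxed (0.11) and Star the lowest (-0.18), while in Cdh5Cre against floxed these were Abcb1a (0.33) and Srd5a1 (-0.20). Abcb1a was also lowest, at -0.26, and Por highest, at 0.29, in Sm22Cre against Cdh5Cre. The genes of adrenal corticosteroid synthesis Cyp11b1, Cyp11b2 and Hsd3b1 were listed at 0 in all groups, and Srd5a2 in floxed. Cyp11a1 was at 0.06 FPKM in Sm22Cre, 0.07 in Cdh5Cre and 0.08 in floxed. A listed 0 can be a failed estimate in this table, but Cyp11b1, Cyp11b2, Hsd3b1 and Srd5a2 had status NOTEST, not FAIL, in every pair.

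Among the targets, Fkbp5, Zbtb16 and Sgk1 were highest in Sm22Cre aorta, Sgk1 by little. Fkbp5 (ENSMUSG00000024222, chromosome 17, 28536040 to 28654469), which encodes a co-chaperone that lowers the receptor's affinity for hormone and is induced by it, stood at 19.4 FPKM in Sm22Cre, 15.4 in Cdh5Cre and 11.4 in floxed. Both Cre groups were above floxed. The plain ratio against floxed was 1.71-fold in Sm22Cre and 1.36-fold in Cdh5Cre, with log2 ratios of 0.73 and 0.41. Zbtb16 (ENSMUSG00000066687, chromosome 9, 48462416 to 48644050), which encodes the zinc finger transcription factor PLZF and is induced by glucocorticoid in many cells, stood at 14.5 FPKM in Sm22Cre, 6.42 in Cdh5Cre and 7.66 in floxed. The Sm22Cre value stood apart from both others, 1.90-fold above floxed and 2.26-fold above Cdh5Cre. Its log2 ratio against floxed was 0.84 in Sm22Cre and -0.22 in Cdh5Cre.

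These ratios were uncommon in Sm22Cre against floxed, a comparison in which few genes differed by much. None of the 7 genes reached 2-fold in Sm22Cre against floxed, where 0.302% of all genes were higher and 0.330% lower by as much, or 0.633% in either direction. At 1.5-fold, Zbtb16 and Fkbp5 were 2 of the 7, where 0.619% of all genes were higher by as much, 0.921% lower and 1.54% in either direction. Zbtb16 ranked 59 and Fkbp5 71 from the top of 14227 genes. With the length and GC trend removed the log2 ratios were 0.87 for Zbtb16 and 0.73 for Fkbp5, at ranks 21 and 27 from the top of 12317. These ranks describe the group values, and the genes were chosen with results of these data known.

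Tsc22d3 (ENSMUSG00000031431, chromosome X, 137074067 to 137135198) encodes GILZ, a leucine zipper protein that carries part of the anti-inflammatory action of glucocorticoids. It was the most abundant of the 8 genes in Sm22Cre and Cdh5Cre, at 58.9 FPKM in Sm22Cre, 74.9 in Cdh5Cre and 50.3 in floxed. Cdh5Cre was highest for this gene and floxed lowest. The log2 ratio against floxed was 0.22 in Sm22Cre and 0.56 in Cdh5Cre. Sgk1 (ENSMUSG00000019970, chromosome 10, 21601990 to 21719709) encodes a kinase that aldosterone and glucocorticoids induce and that promotes sodium uptake in kidney epithelium. It stood at 54.3 FPKM in Sm22Cre, 38.8 in Cdh5Cre and 50.8 in floxed, so that Cdh5Cre was lowest. Its log2 ratio against floxed was 0.09 in Sm22Cre and -0.38 in Cdh5Cre. Sgk1, with the full element in a window shown above, had the group order of Zbtb16 (Sm22Cre, floxed, Cdh5Cre from high to low) and not that of Tsc22d3 or Fkbp5.

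**Figure D3:**
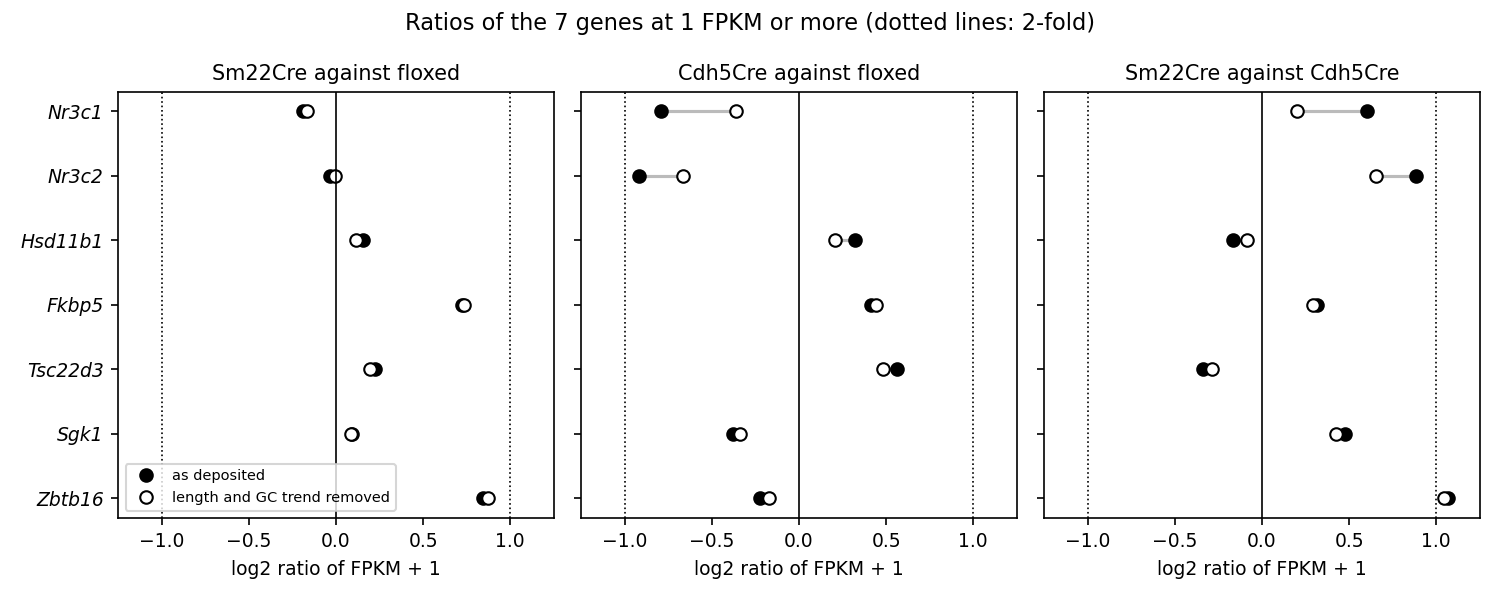
Log2 ratio of FPKM + 1 (horizontal) of the 7 genes at 1 FPKM or more in the 3 comparisons. Filled points are ratios as deposited, open points have the trend with transcript length and GC content removed, and dotted lines mark 2-fold. Removal of the trend moved Nr3c1 most, to -0.36 in Cdh5Cre against floxed, and hardly moved Fkbp5 and Zbtb16.

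In Cdh5Cre against floxed none of the 7 genes reached 2-fold on the log2(FPKM + 1) scale, where 1.20% of all genes were higher and 0.703% lower by as much, or 1.90% in either direction. Nr3c1 and Nr3c2 were lower by 1.5-fold or more, where 6.02% of all genes were lower by as much, 8.34% higher and 14.4% in either direction. With the length and GC trend removed Nr3c2 alone remained past 1.5-fold. The median log2 ratio of the 7 genes was -0.22 in Cdh5Cre and 0.16 in Sm22Cre, each against floxed, against 0.02 and 0.01 over all genes. In all, 3 of the 7 were higher and 4 lower in Cdh5Cre, where 51.7% of all genes were higher. In Sm22Cre 5 were higher and 2 lower, where 52.0% of all genes were higher. Both comparisons use the same floxed value.

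Sm22Cre set directly against Cdh5Cre left out the floxed value. Zbtb16 was the 1 gene of the 7 to reach 2-fold, with a log2 ratio of 1.07, where 0.401% of all genes were higher by as much, 1.24% lower and 1.64% in either direction. It ranked 42 from the top of 14227 genes, and 11 from the top of 12317 with the trend removed (1.04). Nr3c2 followed at 0.89 and rank 101 and Nr3c1 at 0.60 and rank 554, and these 3 were higher by 1.5-fold or more, where 4.34% of all genes were higher by as much, 7.58% lower and 11.9% in either direction. With the trend removed Nr3c2 stood at 0.66 and Nr3c1 at 0.20. Sgk1 was at 0.47, Fkbp5 at 0.31, Hsd11b1 at -0.17 and Tsc22d3 at -0.34.

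Genes with the most similar pattern over the 3 group values were sought among 9388 other coding genes at 5 FPKM or more, by the distance between their pairs of log2 ratios against floxed. Among the nearest to Nr3c1 were Zfp704 (0.01) and Mpped2 (0.02), and 92 genes lay within 0.1. Ipo7, Pdpk1 and Fem1c were nearest to Nr3c2, with 61 genes within 0.1. Fkbp5 and Zbtb16 had no gene within 0.1. The nearest to Fkbp5 were Olfr1033 (0.14), the clock gene Npas2 (0.17) and Ccn2 (0.17). The nearest to Zbtb16 were Dnaja1 (0.33), Wsb1 (0.38) and Hsp90aa1 (0.42), of which Dnaja1 and Hsp90aa1 encode chaperones of the receptor complex. Dnaja1 and Hsp90aa1 had status FAIL in every pair.

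Chaperones and co-chaperones of the receptors were on the high side in Sm22Cre. All 16 listed were measured, and 15 were higher in Sm22Cre than in floxed, with a median log2 ratio of 0.18, where 52.0% of all genes were higher. The inducible Hsp70 genes Hspa1b and Hspa1a led. Hspa1b was at 106.6 FPKM in Sm22Cre, 81.4 in Cdh5Cre and 51.9 in floxed, a log2 ratio of 1.03 in Sm22Cre against floxed. It was the only one of the list to reach 2-fold, where 0.302% of all genes were higher by as much. Hspa1a was at 71.2 FPKM in Sm22Cre, 55.8 in Cdh5Cre and 36.3 in floxed. The pair are near-identical copies between which fragments can be divided wrongly, and Hspa1b had status FAIL. Status was OK for 10 of the 16 chaperone genes in each comparison. Hsp90aa1, a core subunit of the receptor complex, was at 221.8 FPKM in Sm22Cre, 151.3 in Cdh5Cre and 162.9 in floxed. Its status was FAIL in every pair. Bag1 was the 1 lower gene in Sm22Cre, at a log2 ratio of -0.07, and the highest in Cdh5Cre, at 0.68. Once the trend was removed Bag1 was at 0.34 in Cdh5Cre, below Hspa1b (0.43) and Hspa1a (0.39). In Cdh5Cre against floxed 10 of the 16 were higher, where 51.7% of all genes were. The median was 0.15, or -0.02 under quantile normalization, and Hspa4 was lowest at -0.19. Fkbp4, the relative of Fkbp5 that favours receptor activity, was at 61.9 FPKM in Sm22Cre, 81.6 in Cdh5Cre and 56.2 in floxed, so Fkbp5 amounted to 0.31 of Fkbp4 in Sm22Cre, 0.19 in Cdh5Cre and 0.20 in floxed. In Sm22Cre against Cdh5Cre, Dnaja1 was highest at 0.67 and Bag1 lowest at -0.75.

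Coregulators, the proteins through which the receptors switch genes on or off, were mostly lower in Cdh5Cre. Of the 14, 11 were lower than in floxed, where 51.7% of all genes were higher, with a median log2 ratio of -0.45. With the length and GC trend removed 10 were lower and the median was -0.12. Ncoa2, a coactivator that the glucocorticoid receptor uses, was lowest, at 11.8 FPKM in Sm22Cre, 6.68 in Cdh5Cre and 13.1 in floxed. Its status was FAIL in every pair. Hdac3 was highest, at a log2 ratio of 0.20. In Sm22Cre against floxed 11 of the 14 were lower as well, or 9 with the trend removed, where 52.0% of all genes were higher. The median was -0.12, with Hdac3 highest at 0.06. In Sm22Cre against Cdh5Cre, Ncoa2 was highest at 0.73. None reached 2-fold in any comparison.

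Other glucocorticoid-responsive genes did not move as 1 group. Of 35 listed, 33 reached 1 FPKM, and Tat and Il1r2 did not. In Sm22Cre against floxed 24 were higher and 9 lower, where 52.0% of all genes were higher. The median log2 ratio was 0.15, and none reached 2-fold, where 0.633% of all genes did in either direction. Angptl4, an inhibitor of lipoprotein lipase, was highest, at 15.1 FPKM in Sm22Cre, 22.9 in Cdh5Cre and 9.82 in floxed. Trim63, a muscle ubiquitin ligase gene, was lowest, at 1.18 FPKM in Sm22Cre, 3.12 in Cdh5Cre and 2.30 in floxed. Trim63 is also expressed in heart muscle, whose markers were lower in Sm22Cre, and their part in its value was not tested.

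In Cdh5Cre against floxed the response genes spread more widely. In this comparison 18 were higher and 15 lower, where 51.7% of all genes were higher, with a median of 0.07. Angptl4 reached 2-fold at a log2 ratio of 1.14, where 1.20% of all genes were higher by as much and 0.703% lower. With the trend removed Angptl4 was at 1.15. Fbxo32, a ubiquitin ligase gene of muscle wasting, was lower at -1.23, with 36.9 FPKM in Sm22Cre, 18.8 in Cdh5Cre and 45.5 in floxed. Its transcript is long, and with the trend removed the ratio was -0.88. The stress gene Ddit4 (0.88), the transcription factor genes Cebpd (0.88) and Cebpb (0.82) and the metallothionein genes Mt1 (0.66) and Mt2 (0.71) were on the high side, and Klf9 (-0.81) and Pdk4 (-0.71) on the low side. With the trend removed these were 0.54 for Ddit4, 0.90 for Cebpd, 0.25 for Cebpb, 0.28 for Mt1, 0.05 for Mt2, -0.63 for Klf9 and -0.54 for Pdk4. Per1, a clock gene that glucocorticoid induces directly, was at 37.5 FPKM in Sm22Cre, 34.6 in Cdh5Cre and 44.8 in floxed, lower than floxed in both Cre groups. Cebpb was the 1 gene of the list to reach 2-fold in Sm22Cre against Cdh5Cre, at -1.05. There, 1.24% of all genes were lower by as much. With the trend removed Cebpb was at -0.46, and 7 other genes share its locus. Fbxo32 was highest in Sm22Cre against Cdh5Cre, at 0.94.

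**Figure D4:**
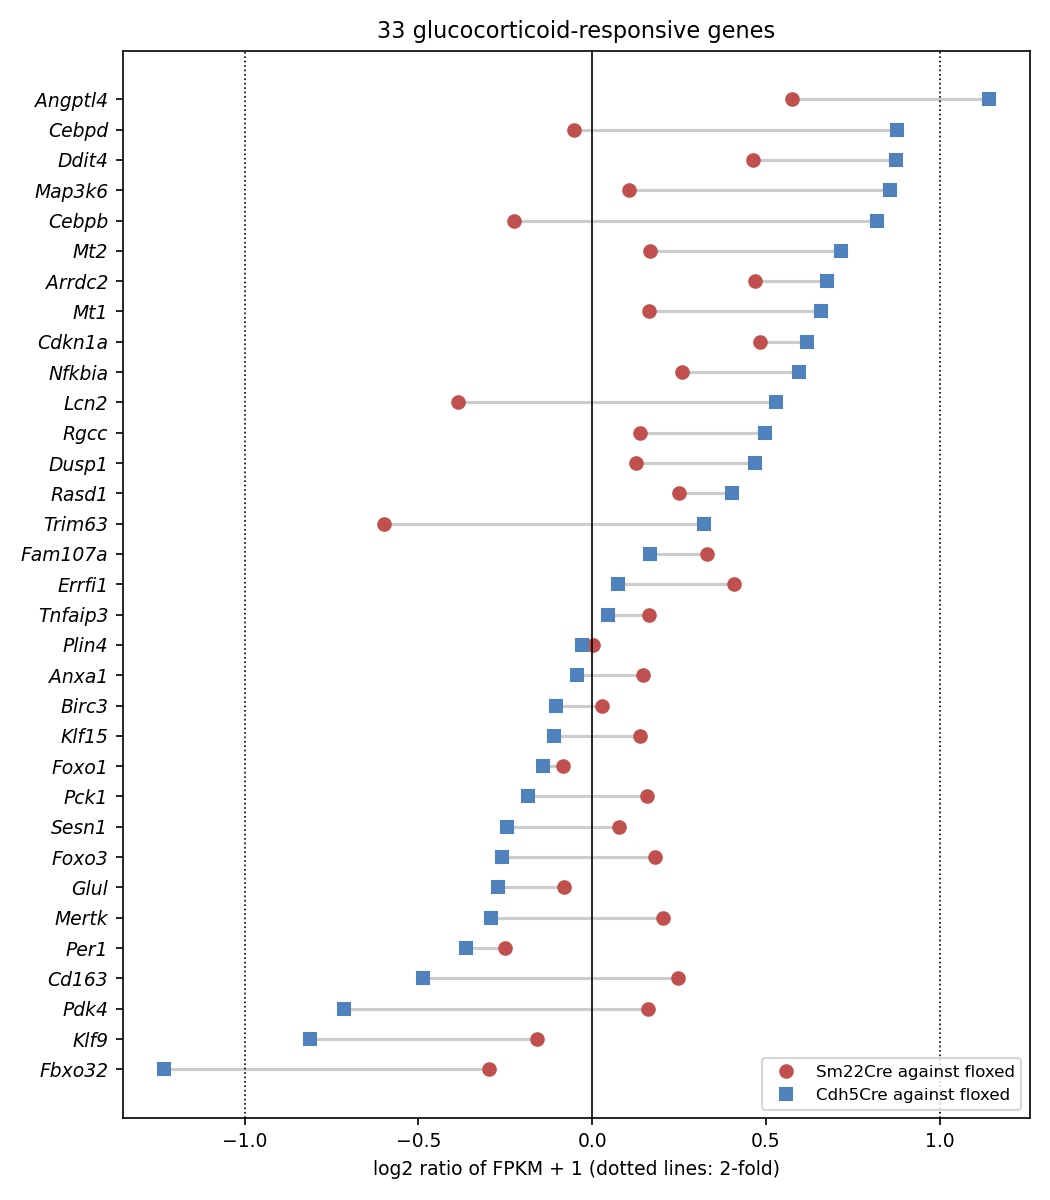
Log2 ratio of FPKM + 1 (horizontal) of the 33 glucocorticoid-responsive genes at 1 FPKM or more, ordered by Cdh5Cre against floxed. Circles are Sm22Cre against floxed, squares Cdh5Cre against floxed, and both share the floxed value. The squares range from -1.23 for Fbxo32 to 1.14 for Angptl4, and the circles from -0.60 for Trim63 to 0.57 for Angptl4.

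The classical epithelial outputs of the mineralocorticoid receptor were scarce in this tissue. Of 16 genes of sodium transport, 9 reached 1 FPKM. The subunits of the epithelial sodium channel did not: Scnn1a was at 0.44 FPKM in Sm22Cre, 0.48 in Cdh5Cre and 0.43 in floxed, Scnn1b was below 0.05 in each, and Scnn1g was listed at 0 in Sm22Cre and floxed. Slc12a1 was listed at 0 throughout. Nedd4, a ubiquitin ligase gene related to Nedd4l, was the most abundant, at 243.0 FPKM in Sm22Cre, 176.3 in Cdh5Cre and 255.7 in floxed. All 9 were lower in Sm22Cre than in floxed, and 7 of the 9 with the trend removed, where 52.0% of all genes were higher. The amounts were small, from -0.22 for Atp1b1 to -0.04 for Wnk1. In Cdh5Cre against floxed 8 were lower, or 7 with the trend removed, where 51.7% of all genes were higher. The median was -0.18, with Nedd4 lowest at -0.53 and Wnk4 highest at 0.42. The same genes bounded Sm22Cre against Cdh5Cre, at 0.46 for Nedd4 and -0.46 for Wnk4.

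Of 12 genes tied to the mineralocorticoid receptor in vessels, 10 were higher in Cdh5Cre than in floxed, where 51.7% of all genes were, with a median log2 ratio of 0.26, or 0.00 under quantile normalization. After removal of the trend 8 were higher and 4 lower. Pgf, a growth factor gene that aldosterone induces in vessels, was highest there, at 2.95 FPKM in Sm22Cre, 5.15 in Cdh5Cre and 3.23 in floxed. The calcium channel gene Cacna1c was at 11.1 FPKM in Sm22Cre, 6.46 in Cdh5Cre and 14.9 in floxed. Its log2 ratio in Cdh5Cre against floxed was -1.09, lower by 2-fold, where 0.703% of all genes were. With the trend removed its log2 ratio was -0.71. Status was FAIL for Cacna1c. In Sm22Cre against floxed 8 of the 12 were lower, where 52.0% of all genes were higher, with a median of -0.11. Ccn2, a matricellular protein gene, was highest at 0.56, and Cacna1c lowest at -0.39. Lcn2, which also stands among the 35 response genes, was lowest in Sm22Cre against Cdh5Cre, at -0.91, where Cacna1c was highest, at 0.69.

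**Figure D5:**
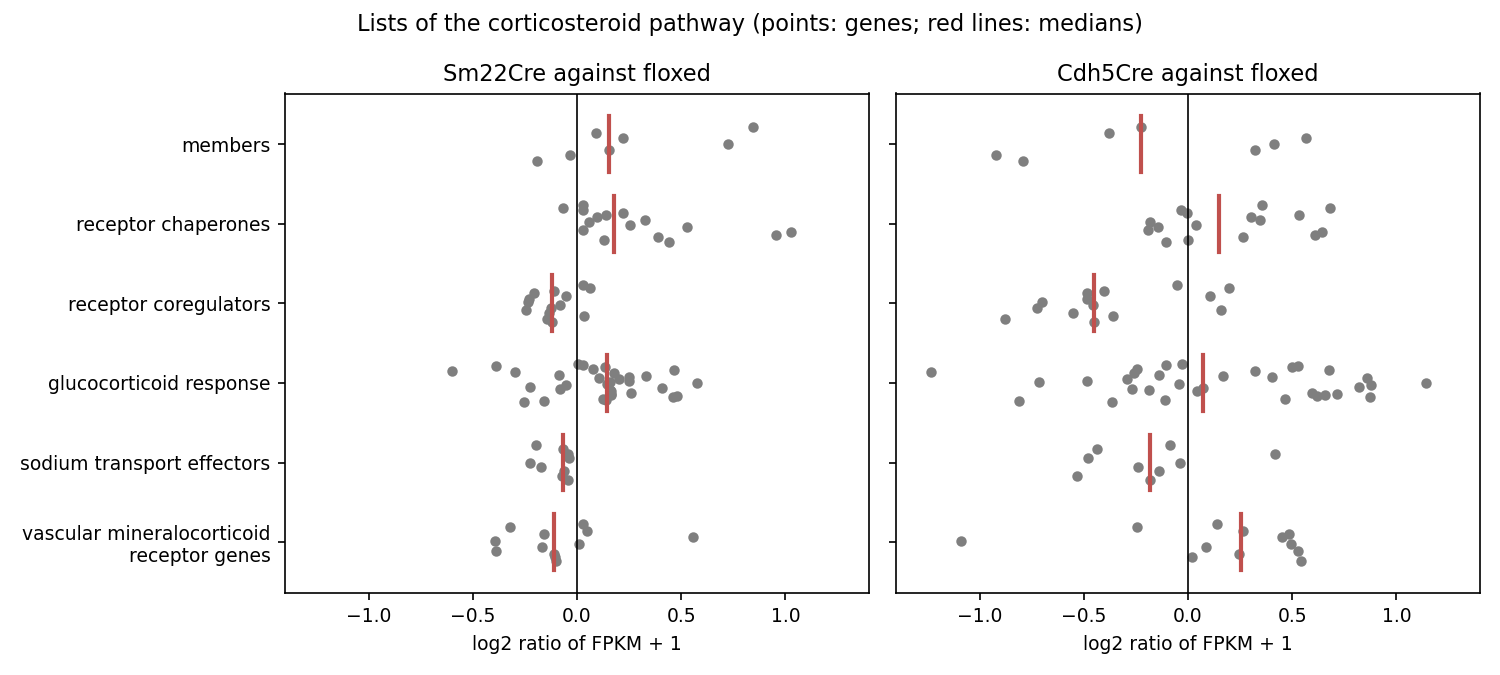
Log2 ratio of FPKM + 1 (horizontal) of each gene at 1 FPKM or more (grey points) in 6 lists of the corticosteroid pathway, for Sm22Cre against floxed and Cdh5Cre against floxed. Red lines are list medians. The chaperone median is 0.18 in Sm22Cre, and the coregulator median is -0.45 in Cdh5Cre.

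Relatives of the targets were set beside them. Tsc22d1 was at 250.9 FPKM in Sm22Cre, 222.5 in Cdh5Cre and 255.3 in floxed, above Tsc22d3 in each group. Tsc22d4 was at 60.5 FPKM in Sm22Cre, 75.7 in Cdh5Cre and 60.7 in floxed, with Cdh5Cre highest, as for Tsc22d3. Tsc22d2 had the opposite side, at 14.3 FPKM in Sm22Cre, 9.28 in Cdh5Cre and 16.0 in floxed, with a log2 ratio of -0.73 in Cdh5Cre against floxed, or -0.26 with the trend removed. Sgk3 was at 5.77 FPKM in Sm22Cre, 4.31 in Cdh5Cre and 5.72 in floxed, so that Sgk1 exceeded it by 9.41-fold in Sm22Cre, 9.01-fold in Cdh5Cre and 8.88-fold in floxed, and Cdh5Cre was lowest for both kinases. Sgk2 and Zbtb32 stayed under 1 FPKM. None of these relatives reached 2-fold in any comparison. In Sm22Cre against Cdh5Cre the log2 ratio of Fkbp4 was -0.39.

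Clock genes, blood and heart muscle also differed between the groups, and their part in the values above was not tested. Arntl, a core clock activator, was at 5.02 FPKM in Sm22Cre, 2.88 in Cdh5Cre and 1.77 in floxed, with a log2 ratio of 1.12 in Sm22Cre against floxed. Npas2 was at 6.38 FPKM in Sm22Cre, 4.01 in Cdh5Cre and 3.06 in floxed. Arntl was the highest clock gene in Cdh5Cre against floxed as well, at 0.49. Of 15 clock genes, 11 were lower in Sm22Cre and 13 in Cdh5Cre, each against floxed, where 52.0% and 51.7% of all genes were higher. Bhlhe41 was lowest in both (-0.76 and -0.92). In Sm22Cre against Cdh5Cre the clock genes ran from Bhlhe40 (-0.22) to Clock (0.75). The labels used here give no time of tissue collection.

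Over all genes FPKM summed to 500015 in Sm22Cre, 607867 in Cdh5Cre and 495724 in floxed. The list sums below were not scaled to a common total. Erythroid markers summed to 9029 FPKM in Sm22Cre, 25453 in Cdh5Cre and 4020 in floxed. All 5 compared (Hba-a1, Hba-a2, Hbb-bs, Hbb-bt and Alas2) reached 2-fold in each comparison. With the trend removed Hbb-bs (-0.85) and Hbb-bt (-0.91) did not in Sm22Cre against Cdh5Cre. The globin genes are near-identical copies, so single values are uncertain. Of all genes, 0.302% were higher by 2-fold in Sm22Cre against floxed and 1.20% in Cdh5Cre against floxed. In Sm22Cre against Cdh5Cre 1.24% of all genes were lower by 2-fold. Neutrophil and platelet markers summed to 94.1 FPKM in Sm22Cre, 291.8 in Cdh5Cre and 46.4 in floxed, with S100a8, S100a9, Ppbp and Tubb1 past 2-fold in Sm22Cre against floxed, and these with Pf4, Gp9 and Itga2b in Cdh5Cre against floxed. All but Pf4 were also past 2-fold, lower, in Sm22Cre against Cdh5Cre, and Ly6g was listed at 0 in floxed. Once the trend was removed Pf4 was at 0.49 in Cdh5Cre against floxed, and Tubb1 was at -0.87 and Itga2b at -0.98 in Sm22Cre against Cdh5Cre. Blood genes were thus highest in Cdh5Cre and lowest in floxed.

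Heart muscle markers summed to 440.1 FPKM in Sm22Cre, 1479 in Cdh5Cre and 975.6 in floxed. All 10 were lower in Sm22Cre than in floxed, where 52.0% of all genes were higher. By 2-fold 6 were lower (Myl4, Myl7, Tnni3, Myh6, Myl2 and Actc1), where 0.330% of all genes were. Sm22Cre was lower than Cdh5Cre by 2-fold for these 6, Tnnt2 and Nppa, where 1.24% of all genes were. With the trend removed Nppa was at -0.99 in that comparison. Endothelial markers summed to 378.2 FPKM in Sm22Cre, 528.3 in Cdh5Cre and 334.2 in floxed. Cldn5, Sox18, Emcn and Egfl7 were past 2-fold in Cdh5Cre against floxed, where 1.20% of all genes were higher by as much. With the trend removed only Emcn of these was past 2-fold (Cldn5 0.79, Sox18 0.82, Egfl7 0.63). Fibroblast markers summed to 1943 FPKM in Sm22Cre, 3047 in Cdh5Cre and 1961 in floxed. Clec3b, Pi16 (status FAIL in every pair) and Ly6a were past 2-fold in Cdh5Cre against floxed, where 1.20% of all genes were higher by as much. In Sm22Cre against Cdh5Cre, Clec3b and Pi16 were past 2-fold, lower, where 1.24% of all genes were. After removal of the trend only Pi16 was past it in either comparison, with Clec3b at 0.74 and Ly6a at 0.73 in Cdh5Cre against floxed and Clec3b at -0.70 in Sm22Cre against Cdh5Cre. For both cell types the sum was highest in Cdh5Cre, as was the sum over all genes.

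Adipocyte markers summed to 761.9 FPKM in Sm22Cre, 936.6 in Cdh5Cre and 724.2 in floxed. This sum and those that follow are to be read against the higher sum over all genes in Cdh5Cre. Macrophage markers summed to 307.9 FPKM in Sm22Cre, 324.0 in Cdh5Cre and 283.7 in floxed. In Cdh5Cre against floxed 5 of the 8 were higher and 3 lower, with Mrc1 lowest at -0.75. With the trend removed all 8 were lower, at a median of -0.13, where 47.1% of all genes were higher. Lymphoid markers summed to 16.8 FPKM in Sm22Cre, 26.8 in Cdh5Cre and 13.9 in floxed. Most of each lymphoid sum was Coro1a, at 13.5 FPKM in Sm22Cre, 21.2 in Cdh5Cre and 11.8 in floxed. None of these genes that were compared reached 2-fold on the log2(FPKM + 1) scale, which shrinks the differences of scarce genes. Of the 8 lymphoid markers only 4 were compared. By the plain ratio Lck was 4.12-fold and Cd79a 3.22-fold higher in Cdh5Cre than in floxed, at 1.20 and 1.10 FPKM in Cdh5Cre. Smooth muscle markers, which define most of this tissue, summed to 7192 FPKM in Sm22Cre, 7608 in Cdh5Cre and 7268 in floxed. Their median log2 ratio against floxed was 0.00 in Sm22Cre and -0.05 in Cdh5Cre, or -0.40 in Cdh5Cre under quantile normalization.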

How the data were processed

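Aortic RNA of 9 mice was sequenced as poly-A selected, stranded, paired-end libraries, per the labels' protocols. Cufflinks 1.3.0, Bowtie2 2.1.0, TopHat2 2.0.8 and SAMtools 0.1.7 are named, with build mm9, per the submitters' processing notes, which give no roles or options. The deposited table holds FPKM made by the authors, 1 value per gene and group, and a status per pair of groups. The annotation and the use of strand in the estimates were not given in the sources used here.

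Values were read from the pairs with floxed. Among 37668 genes, 15 had a value that differed between pairs, none of them among the 8 genes described. Listed starts were taken as counted from 0, since the listed span equalled the gene's GENCODE M21 length for 13791 genes and that length minus 1 for 336, and 1 was added. GENCODE M21, on another build, gave symbols (32638 genes), transcript length and GC content only.

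Log2 ratios on log2(FPKM + 1) were computed with Python 3.11.15 and pandas 2.3.3 for genes at 1 FPKM or more. A fit over libraries had been planned but needs values per library, so ratios were read against 2-fold and 1.5-fold. The trend was a quadratic surface of log2 length and GC content over 12317 coding genes. A check on simulated data planted a linear trend, a form that this surface contains, so its removal there was largely fixed in advance. The simulated differences did not depend on length, so the check cannot show how the removal acts on real differences that do. The members and the other lists (19 lists with the members, 215 of 217 entries found) were chosen with earlier results of these data known. Named list genes are those past 2-fold, those with the highest and lowest ratio per list and comparison, and those at 0. Cell type markers are given as sums, with those past 2-fold. Genes named beyond this rule were chosen after their values were seen. Some genes that this rule names are not reported here.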

Additional observations from a re-analysis of the deposited data

How the results depend on the processing

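With no values per library, no replicate could be left out. No paired analysis was possible because the columns carry no replicate numbers and no result comes from a test. The number of the 8 genes past the size rule was 0 in Sm22Cre against floxed, and 2 with a 1.5-fold rule. In Cdh5Cre against floxed it was 0, but 1 (Nr3c2) with a pseudocount of 0.1 or 0.01 FPKM and 2 with a 1.5-fold rule. In Sm22Cre against Cdh5Cre it was 1, but 2 (with Nr3c2) with either smaller pseudocount and 3 with a 1.5-fold rule. The other settings tried were no filter on low values, a filter at 5 FPKM, quantile normalization, centring on the median, removal of the length and GC trend, and status OK alone, and none of them moved these counts. Among 96 values of single genes under another setting, none changed direction. For some of them this was fixed in advance. The status OK values repeat the main ones, and a smaller pseudocount cannot change a sign. The split of all genes past 2-fold was 43 higher and 47 lower in Sm22Cre against floxed, 171 and 100 in Cdh5Cre against floxed and 57 and 177 in Sm22Cre against Cdh5Cre, and with the trend removed 13 and 24, 60 and 20, and 12 and 78. Depth is unknown, so how far it limits Hsd11b2 and other genes under 1 FPKM could not be given.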
